A study of Mus musculus with 33 samples.

Results

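The 10 genes described here, Smarca4, Smarca2, Arid1a, Arid1b, Smarcc1, Smarcc2, Smarcd1, Smarcd3, Actl6a and Dpf2, encode subunits of the BAF chromatin remodelling complex. They were chosen by name, as paralogue pairs and associated subunits, out of 37583 gene IDs counted in every library, and all 10 passed the filter on low counts. Earlier results of these data were known when they were chosen. The libraries hold poly-A RNA of mouse embryonic fibroblasts (MEFs) and of cells on the way to induced pluripotent stem (iPS) cells, at days 3, 6, 9 and 12 and at the iPS stage. At each of these 5 stages, flow cytometry had split the cells into a fraction without (SSEA1neg) and a fraction with (SSEA1pos) SSEA1, a carbohydrate antigen found on mouse pluripotent cells. The 11 groups held 3 libraries each, 33 in all, and every library carries the strain label 129SV/Jae/C57BL6J. MEFs grew in MEF media. Every reprogramming group grew in ES media to which dox and AA, as the labels abbreviate them, had been added, so medium and reprogramming cannot be told apart in any comparison with MEFs. The transgenes, the genotype, the age of the embryos and whether replicates are separate cultures or animals are not given in the sources used here, so the spread that p-values measure is that among these libraries and may be technical.

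BAF complexes, the mammalian SWI/SNF family, use the energy of ATP to slide or evict nucleosomes. Each complex carries a single ATPase, encoded by Smarca4 (BRG1) or Smarca2 (BRM), on a core of SMARCC proteins, with ARID1 and SMARCD subunits and several smaller proteins drawn from further gene families. The form described in mouse embryonic stem cells is known for using Smarca4, Arid1a, Smarcc1 and Smarcd1 and for having little of Smarca2 and Smarcc2, whereas fibroblasts and differentiated cells hold both members of these pairs.

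Reads counted in genes came to 8.93 to 41.69 M per library (median 23.15 M). Levels are TMM-normalised CPM (counts scaled to a common library size), and changes are log2 fold changes ± standard error from edgeR's quasi-likelihood test over 17326 genes in 1 model of all 33 libraries. Calls required an adjusted p (Benjamini-Hochberg, over all these genes) under 0.05. The labels fitted their markers: 7 fibroblast markers summed to 68200 to 76200 CPM in MEFs and 33.1 to 193 CPM in SSEA1pos iPS cells, and 7 pluripotency markers to 1.67 to 3.2 and 3350 to 4630 CPM. Libraries within a group were not all alike. The pluripotency sum was 1960 CPM in SSEA1neg iPS replicate 3 against 186 and 393 in replicates 1 and 2, it was 3410, 2430 and 1610 CPM in the day 12 SSEA1pos libraries, and 10 S-phase genes summed to 1400 CPM in MEF replicate 1 against 515 and 605 in replicates 2 and 3. Sums of 6 macrophage markers were 162, 215, 312 and 506 CPM in SSEA1neg replicate 2 from day 6 to the iPS stage. Replicates 1 and 3 of these groups had 12.7 to 33.8 CPM. The part of such cells in the levels below was not tested. In bulk RNA, fewer cells of a type and less RNA per cell cannot be told apart.

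By the ratio of reads, each paralogue pair stood further apart in SSEA1pos iPS cells than in MEFs. The path there was not uniform, since the Smarca4 to Smarca2 ratio first fell, from 4.86 in MEFs to 2.12 in day 6 SSEA1pos cells. Nor was widening confined to SSEA1pos cells. The Arid1a to Arid1b and Smarcd1 to Smarcd3 ratios were above those of MEFs in SSEA1neg cells at all stages. By the iPS stage the SSEA1pos cells held more Arid1a, Smarcc1, Smarcd1, Actl6a and Dpf2 RNA than MEFs, and less Smarca2, Smarcc2, Smarcd3 and Arid1b RNA. The order in time differed between the genes that fell. Smarcd3 was already 3.43-fold lower at day 3, Smarcc2 was 1.62-fold lower at day 3 and 4.68-fold lower at the iPS stage, and Smarca2 rose first, to 3.14-fold above MEFs at day 6, before it reached 6.31-fold below them at the iPS stage. In SSEA1neg cells Smarca2 was above MEFs from day 3 to day 12, and Smarca4 was below them from day 6 on.

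**Figure D1:**
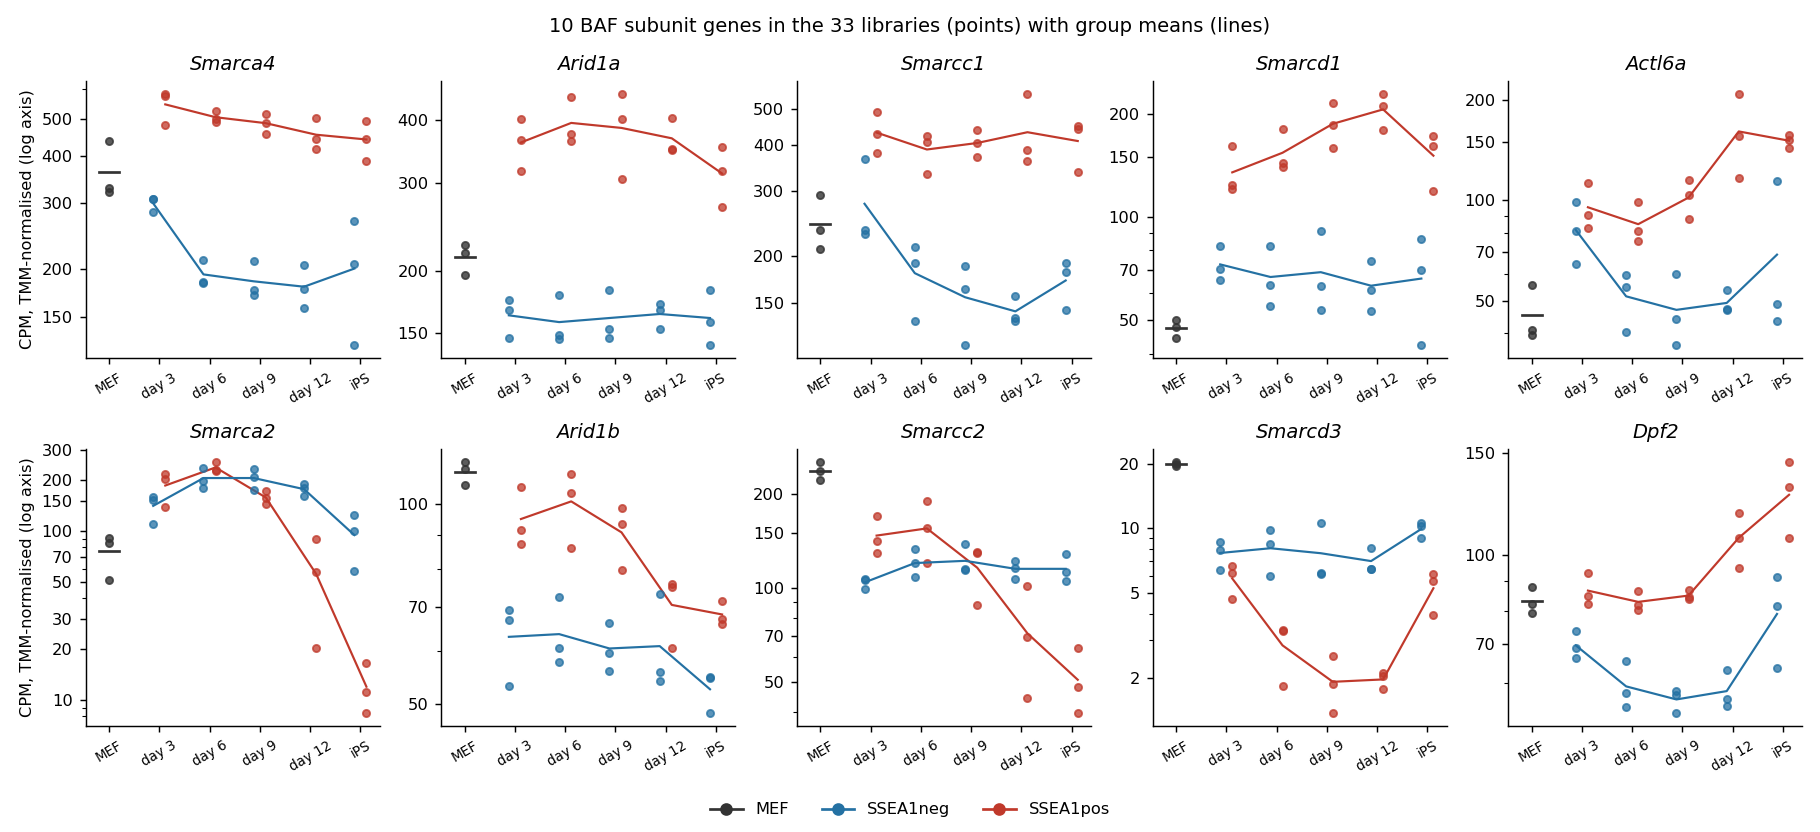
Levels of the 10 genes (CPM, log axis) by stage, with 1 point per library and lines through the means of SSEA1neg and SSEA1pos cells (bar: mean of MEFs). Smarca2 rises in both fractions and falls to a mean of 12 CPM in SSEA1pos iPS cells, while Smarcd1 and Actl6a end above MEFs in that fraction.

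The promoter sequences of the ATPase pair and the SMARCC pair are shown first, as the catalytic and core subunits in each of which 1 paralogue ends far below its MEF level in SSEA1pos iPS cells. The windows are from RefSeq (build GRCm38.p6), run 5′ to 3′ on the gene's own strand from 250 bases before to 50 bases after the annotated start, and have the GC box (GGGCGG or, on the other strand, CCGCCC) in capitals. Smarca4 is at chr9:21615919-21616218, Smarca2 at chr19:26604910-26605209, Smarcc1 at chr9:110131774-110132073 and Smarcc2 at chr10:128458986-128459285, all on the plus strand.
Smarca4: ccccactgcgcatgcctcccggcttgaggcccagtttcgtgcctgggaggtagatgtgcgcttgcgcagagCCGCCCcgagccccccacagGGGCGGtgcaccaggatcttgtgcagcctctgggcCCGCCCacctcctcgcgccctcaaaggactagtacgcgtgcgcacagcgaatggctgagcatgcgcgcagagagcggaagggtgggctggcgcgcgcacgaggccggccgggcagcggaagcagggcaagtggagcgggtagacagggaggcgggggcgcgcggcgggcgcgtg
Smarca2: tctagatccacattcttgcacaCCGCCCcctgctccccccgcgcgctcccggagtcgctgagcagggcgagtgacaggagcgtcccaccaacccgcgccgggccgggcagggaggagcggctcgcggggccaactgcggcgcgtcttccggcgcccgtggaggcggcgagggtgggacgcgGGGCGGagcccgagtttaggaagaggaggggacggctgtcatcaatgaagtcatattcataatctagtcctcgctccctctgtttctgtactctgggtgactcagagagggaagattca
Smarcc1: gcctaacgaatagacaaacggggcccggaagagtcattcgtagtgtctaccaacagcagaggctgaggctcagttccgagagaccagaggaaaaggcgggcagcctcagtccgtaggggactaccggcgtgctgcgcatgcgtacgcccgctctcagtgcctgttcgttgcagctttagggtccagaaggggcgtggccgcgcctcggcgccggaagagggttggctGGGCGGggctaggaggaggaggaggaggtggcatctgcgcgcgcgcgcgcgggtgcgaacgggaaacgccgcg
Smarcc2: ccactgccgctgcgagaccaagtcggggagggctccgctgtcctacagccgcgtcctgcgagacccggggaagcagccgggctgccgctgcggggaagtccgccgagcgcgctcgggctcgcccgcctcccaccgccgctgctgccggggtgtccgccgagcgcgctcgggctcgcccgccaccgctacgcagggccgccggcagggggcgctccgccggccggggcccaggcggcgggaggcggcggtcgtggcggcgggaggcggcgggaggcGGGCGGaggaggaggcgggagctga

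The 4 windows were rich in CpG, with 33, 29, 33 and 48 CpG dinucleotides for Smarca4, Smarca2, Smarcc1 and Smarcc2, against a median of 7 over 32544 promoter windows of the same length. The GC box was found 3, 2, 1 and 1 times in these windows, and 35.9% of all windows hold it at least once. Within each pair both members thus start in a CpG-rich window with a GC box. The letters CACGTG (Myc E-box), CATTGT (Sox), ATGCAAA (octamer core) and CACACCC (Klf), searched on both strands, were in none of the 4 windows and are in 7.17, 12.4, 4.65 and 7.98% of all windows. A letter match is a description of the window and says nothing on binding.

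Smarca4 encodes the ATPase that pluripotent cells rely on. Its 3 libraries stood at 436, 329 and 321 CPM in MEFs. In SSEA1pos cells it was 583, 481 and 575 CPM at day 3, 523, 490 and 501 at day 6, 489, 457 and 514 at day 9, 504, 442 and 417 at day 12, and 388, 441 and 494 at the iPS stage. The SSEA1neg cells had 284, 307 and 307 CPM at day 3 and between 126 and 269 CPM in the 12 libraries of day 6 to the iPS stage. All SSEA1pos libraries were therefore above all SSEA1neg libraries of their stage, and from day 6 on the SSEA1neg libraries were below every MEF library.

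The difference between the fractions was called at each stage, with log2 fold changes of 0.87 ± 0.19 (adjusted p = 0.0038) at day 3, 1.38 ± 0.19 (1.7e-05) at day 6, 1.39 ± 0.19 (6.8e-06) at day 9, 1.34 ± 0.19 (4.2e-06) at day 12 and 1.14 ± 0.19 (2e-05) at the iPS stage. From day 6 on the distance to MEFs was larger on the SSEA1neg side. Against MEFs, Smarca4 fell in SSEA1neg cells by 0.90 ± 0.19 (adjusted p = 0.0004) at day 6 and by 1.01 ± 0.19 (0.00014) at day 12. The higher level in SSEA1pos cells was called at day 3 (0.59 ± 0.18, adjusted p = 0.01) and day 6 (0.48 ± 0.18, 0.034) only, and both calls were fragile. The first was lost without MEF replicate 2 (0.43, adjusted p = 0.11), MEF replicate 3 (0.42, 0.11) or day 3 SSEA1pos replicate 1 (0.48, 0.063), and the second on leaving out any of 5 of its 6 libraries (0.35 to 0.46, adjusted p 0.066 to 0.18), SSEA1pos replicates 1 to 3 and MEF replicates 2 and 3.

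Smarca2, which encodes the alternative ATPase, had the widest range of group means of the 10 genes, 19.8-fold from highest to lowest, while Smarcd3 moved further from MEFs. MEFs had 91.2, 51.5 and 85.2 CPM. Levels in SSEA1pos cells were 139, 217 and 202 CPM at day 3, 229, 258 and 228 at day 6 and 145, 173 and 156 at day 9, all above every MEF library. They then dropped to 20.3, 57.2 and 89.9 CPM at day 12, a range that overlaps that of the MEFs, and to 16.6, 8.36 and 11.1 CPM at the iPS stage, below every other library of the series. In SSEA1neg cells the libraries held 110 to 237 CPM from day 3 to day 12 and 100, 125 and 58.2 CPM at the iPS stage.

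Against MEFs, Smarca2 rose in SSEA1pos cells by 1.29 ± 0.34 (adjusted p = 0.0032) at day 3, 1.65 ± 0.35 (0.00035) at day 6 and 1.05 ± 0.34 (0.012) at day 9, and fell by 2.66 ± 0.36 (7.1e-07) at the iPS stage. In SSEA1neg cells it rose at days 3 to 12, with 0.89 ± 0.34 (0.036), 1.44 ± 0.35 (0.0017), 1.44 ± 0.35 (0.0019) and 1.22 ± 0.34 (0.0063). The size of the early rise leaned on MEF replicate 2, the lowest of its group and the one with the highest macrophage (128 CPM against 3.95 and 20.2) and striated muscle marker sums (260 CPM against 76.9 and 124). Without it the calls at day 3 (0.98, adjusted p = 0.051) and day 9 (0.79, 0.099) in SSEA1pos cells and at day 3 (0.58, 0.26) and day 12 (0.96, 0.059) in SSEA1neg cells were lost, while those at day 6 in SSEA1pos (1.38, 0.0074) and SSEA1neg cells (1.13, 0.028) and at day 9 in SSEA1neg cells (1.16, 0.026) were not. The part of these other cell types was not tested. The SSEA1neg day 3 call was also lost without MEF replicate 1 (0.93, 0.069), MEF replicate 3 (0.89, 0.089), or SSEA1neg replicates 2 (0.80, 0.097) or 3 (0.80, 0.11). Leaving out day 12 SSEA1pos replicate 3 gave a call below MEFs at day 12 (-0.97, adjusted p = 0.021), where all libraries gave none (adjusted p = 0.26).

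The called steps in the fall of Smarca2 in SSEA1pos cells came after day 9. From day 6 to day 9 all 3 libraries were already lower, without overlap, but that step was not called (-0.60). The step from day 9 to day 12 was -1.50 ± 0.35 (adjusted p = 0.006) and that from day 12 to the iPS stage -2.21 ± 0.36 (0.00016). Between the fractions no difference was called at days 3, 6 and 9, and Smarca2 was lower in SSEA1pos cells by 1.67 ± 0.35 (0.00033) at day 12 and 2.97 ± 0.37 (4.1e-07) at the iPS stage, on the log2 scale. The day 12 SSEA1pos libraries differed widely among themselves. Replicate 1, with the highest pluripotency sum of the 3, had the lowest Smarca2, and replicate 3, with the lowest sum, the highest. Without replicate 1 the step to day 12 was -1.10 (adjusted p = 0.038) and the day 12 difference between fractions -1.27 (0.0019). At the iPS stage SSEA1neg replicate 3, with the high pluripotency sum, had the lowest Smarca2 of its group, and without it the difference between fractions was -3.26 (1.4e-07). The part of the pluripotency level in these values was not tested.

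Within each library the ratio of Smarca4 to Smarca2 reads does not depend on the library's scaling, although it still depends on the lengths of the 2 RNAs. The geometric mean ratio was 4.86 in MEFs (4.78, 6.38 and 3.77). It was 2.98, 2.12 and 3.09 in SSEA1pos cells of days 3, 6 and 9, then 9.6 at day 12 (24.8, 7.72 and 4.64) and 37.9 at the iPS stage (23.3, 52.8 and 44.5). In SSEA1neg cells it was 2.15 at day 3, 0.946, 0.906 and 1.01 at days 6, 9 and 12, and 2.12 at the iPS stage (2.06, 1.01 and 4.61). So the ratio first moved away from its later value: all day 6 and day 9 libraries of both fractions were below all MEF libraries, and the iPS SSEA1pos libraries were above every MEF library.

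Over the 5 stages the log2 ratio was 2.16 higher in SSEA1pos than in SSEA1neg cells (exact two-sided permutation test within stages, p = 1.3e-06, adjusted over the 12 ratio tests 5e-06), and it was higher in 15 of 15 same-numbered library pairs. Against MEFs it was 1.88 lower in SSEA1neg cells (exact p = 0.0025, adjusted 0.0029, 15 against 3 libraries). Pooled over the stages, SSEA1pos cells did not differ from MEFs by more than the spread (0.28, exact p = 0.83), since stages below and above MEFs are averaged there. Without the iPS stage that value was -0.39 (exact permutation p = 0.53). The tests of each ratio against MEFs pool libraries of unlike stages on 1 side. Their p-values therefore do not measure a spread among replicates of 1 condition. These tests count each library on its own. Over all tested genes, deviations of same-numbered libraries correlated between successive SSEA1pos stages up to day 12 (r 0.103 to 0.632). Libraries of 1 replicate number were thus linked across those stages, and the p-values of all ratio tests are likely too small. With the libraries of a number averaged over the stages, an alternative chosen after seeing the data, each comparison is 3 against 3 and cannot go below an exact p of 0.1.

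**Figure D2:**
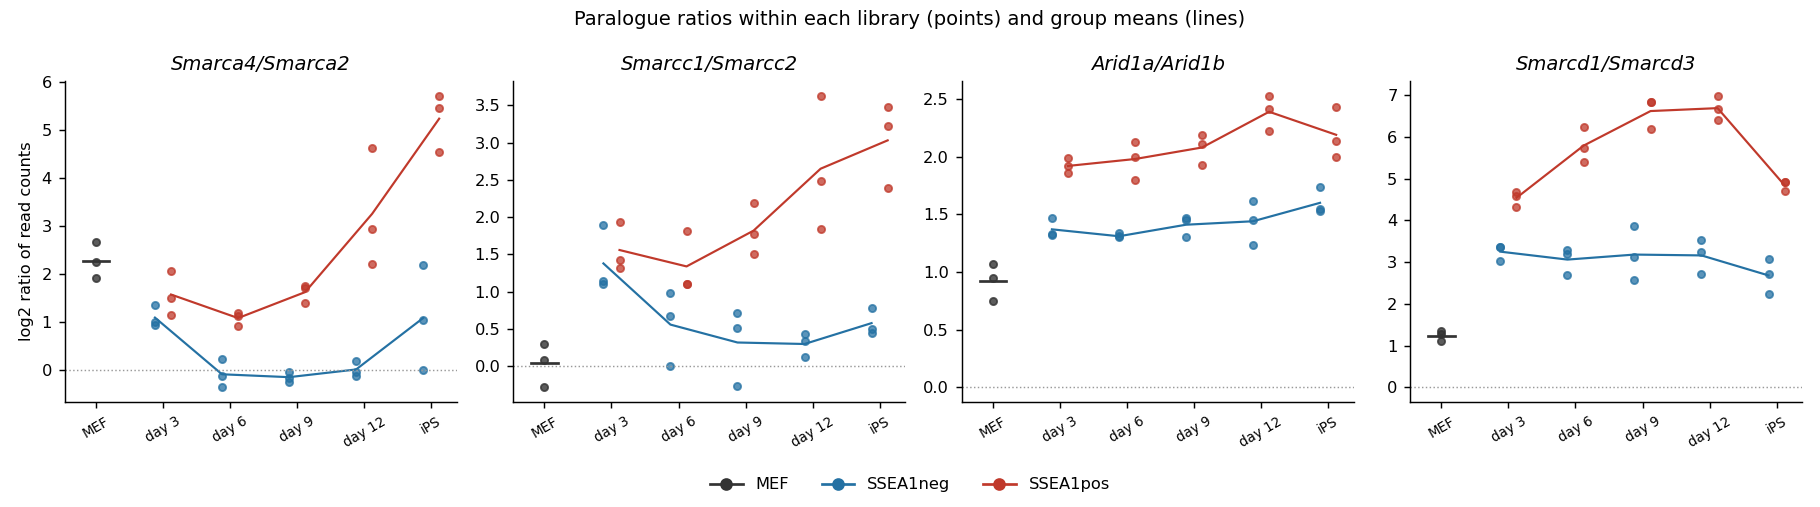
Log2 ratios of read counts for 4 paralogue pairs by stage (points: libraries; lines: group means; bar: mean of MEFs; dotted line: equal counts). In SSEA1pos cells the mean Smarca4/Smarca2 ratio is below that of MEFs at days 3 to 9 and reaches 37.9 at the iPS stage. In SSEA1neg cells its mean is below that of MEFs at all stages. The Smarcd1/Smarcd3 ratio peaks at day 12 in SSEA1pos cells.

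Which ATPase RNA was the more abundant per length rested on the transcript length used in SSEA1neg cells of days 6 to 12. Per kb of all annotated exons, day 6 SSEA1neg cells had 29.9 ± 2.5 CPM of Smarca4 and 14.4 ± 2.0 CPM of Smarca2 (SD, n = 3). Per kb of the principal transcript the values were 30.5 ± 2.5 and 34.8 ± 4.8. There the order of the means was turned but the libraries overlapped, so the order was not resolved on that length. At day 3 and at the iPS stage Smarca4 led in SSEA1neg cells on either length, per kb of the principal transcript with 47.1 ± 2.0 against 23.8 ± 4.5 and 31.6 ± 11 against 16.0 ± 5.7 CPM. In SSEA1pos iPS cells the order was the same on either length, 68.1 ± 8.2 against 0.843 ± 0.29 CPM per kb of all exons and 69.4 ± 8.4 against 2.03 ± 0.71 per kb of the principal transcript, and likewise in MEFs, with 55.9 ± 9.9 against 5.32 ± 1.5 and 57.0 ± 10 against 12.8 ± 3.6.

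Smarcc1 encodes the core subunit that is prominent in embryonic stem cell complexes. MEFs had 292, 235 and 209 CPM. The SSEA1pos libraries held 334 to 549 CPM at all stages, above every MEF library. The SSEA1neg libraries held 366, 235 and 230 CPM at day 3 and 115 to 212 CPM after that. At each stage the lowest SSEA1pos library was above the highest SSEA1neg library.

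Against MEFs the rise in SSEA1pos cells was of like size throughout, from 0.66 ± 0.22 (adjusted p = 0.014) at day 6 to 0.82 ± 0.22 (0.0022) at day 12, and was 0.74 ± 0.22 (0.0044) at the iPS stage. The day 6 call was lost without MEF replicate 2 (0.57, 0.06), MEF replicate 3 (0.50, 0.09) or SSEA1pos replicate 3 (0.59, 0.051). In SSEA1neg cells Smarcc1 fell at day 9 by 0.66 ± 0.22 (0.018) and at day 12 by 0.79 ± 0.22 (0.0052), the first call being lost without MEF replicate 1 (-0.58, 0.051) or SSEA1neg replicate 2 (-0.46, 0.13). The difference between fractions at day 3 missed the threshold (0.64 ± 0.22, adjusted p = 0.052) and passed it with the replicate number as a block (0.65, adjusted p = 0.01), and without SSEA1neg replicate 1 (0.86, 0.019). The difference was called at days 6, 9 and 12 and at the iPS stage, with 1.11 ± 0.22 (0.0006), 1.38 ± 0.22 (3.9e-05), 1.61 ± 0.22 (3.2e-06) and 1.25 ± 0.22 (4.5e-05).

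Smarcc2, its paralogue, stood at 236, 222 and 254 CPM in MEFs, above every library of every other group. The SSEA1pos cells had 129, 141 and 170 CPM at day 3, 120, 156 and 190 at day 6, 88.1, 130 and 129 at day 9, 44.2, 69.4 and 101 at day 12, and 39.6, 48.1 and 64.3 at the iPS stage. In SSEA1neg cells the range over all 15 libraries was only 98.8 to 138 CPM. The early fall was thus common to both fractions, and the later one was seen in SSEA1pos cells.

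Against MEFs, the SSEA1pos log2 changes were -0.69 ± 0.22 (adjusted p = 0.011), -0.61 ± 0.22 (0.024), -1.04 ± 0.22 (0.00034), -1.73 ± 0.23 (4.6e-07) and -2.23 ± 0.23 (7.7e-09) in order of stage. The SSEA1neg changes lay between -1.19 and -0.96 at the 5 stages and all were called. The day 6 SSEA1pos call was lost without MEF replicate 3 (-0.61, 0.064) or SSEA1pos replicate 1 (-0.46, 0.14). At day 12 the fractions differed by -0.69 ± 0.22 (0.012), a call lost without SSEA1pos replicate 1 (-0.44, 0.1), the library with the highest pluripotency sum of its group. At the iPS stage they differed by -1.18 ± 0.22 (0.00011). The step from day 9 to day 12 was -0.69 ± 0.22 (0.04) although the groups overlap, and it was lost on leaving out day 9 SSEA1pos replicate 2 (-0.60, 0.17) or 3 (-0.63, 0.12), or day 12 SSEA1pos replicate 1 (-0.45, 0.27) or 2 (-0.69, 0.11).

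The Smarcc1 to Smarcc2 ratio of reads was 1.02 in MEFs (1.23, 1.06 and 0.822), where the pair was counted about equally. In SSEA1pos cells it was 2.94, 2.53, 3.54, 6.28 and 8.16 from day 3 to the iPS stage, and all 15 libraries were above the MEFs. The day 12 libraries spread from 12.4 through 5.58 to 3.58, replicate 1 again being the highest. In SSEA1neg cells it was 2.6 at day 3 and 1.47, 1.25, 1.23 and 1.49 later. Over the stages the log2 ratio was 1.45 higher in SSEA1pos than in SSEA1neg cells (exact permutation p = 1.1e-05, adjusted 3.4e-05) and higher in 15 of 15 same-numbered pairs. With the stages pooled, it was 2.05 above MEFs in SSEA1pos cells (exact p = 0.0012, the smallest that 816 regroupings allow, adjusted 0.0016). In SSEA1neg cells the 0.59 above MEFs missed the threshold (exact p = 0.081, adjusted 0.088).

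Arid1a encodes the DNA-binding subunit that defines the canonical BAF complex together with its paralogue Arid1b. Arid1a had 225, 217 and 196 CPM in MEFs, 268 to 452 CPM in the SSEA1pos libraries and 142 to 183 CPM in the SSEA1neg libraries. The 3 kinds of cell did not overlap at any stage. The fractions differed by 1.15 ± 0.15 (adjusted p = 0.00013) at day 3, 1.32 ± 0.16 (4.6e-06) at day 6 and 0.96 ± 0.15 (1.6e-05) at the iPS stage. In SSEA1pos cells Arid1a rose against MEFs at all stages, by 0.89 ± 0.15 (3.8e-05) at day 6 and least at the iPS stage (0.55 ± 0.15, 0.0028), where the call was lost without SSEA1pos replicate 2 (0.39, 0.051) and after removal of a trend with GC content (0.37, 0.05). In SSEA1neg cells the fall of 0.39 to 0.43 was called at day 3 (adjusted p = 0.043), day 6 (0.027) and day 9 (0.04), and of 0.41 at the iPS stage (0.038). The day 3 call was lost without any of SSEA1neg replicates 1 to 3 (adjusted p 0.052 to 0.11), the day 6 call without SSEA1neg replicate 1 or 2 (0.092 to 0.094), the day 9 call without MEF replicate 1 or 2 or SSEA1neg replicate 1 or 2 (0.06 to 0.16), and the iPS call without MEF replicate 1 or 2 or SSEA1neg replicate 2 or 3 (0.064 to 0.14). With the GC trend removed the values were -0.02, -0.17, -0.20 and -0.29 (adjusted p 0.96, 0.42, 0.36 and 0.17).

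Arid1b had its highest mean in MEFs, with 107, 113 and 116 CPM. The SSEA1neg libraries had 48.4 to 73.1 CPM at all stages. In SSEA1pos cells it was 87.0, 91.5 and 106 CPM at day 3, 104, 85.9 and 111 at day 6 and 79.7, 93.5 and 98.8 at day 9, and then 75.8, 60.6 and 75 at day 12 and 71.5, 65.9 and 67.1 at the iPS stage. It fell against MEFs in SSEA1neg cells at every stage (from 0.82 ± 0.15, adjusted p = 8.9e-05, at day 6 to 1.09 ± 0.15, 4.6e-06, at the iPS stage), and in SSEA1pos cells at day 12 by 0.67 ± 0.15 (0.00032) and at the iPS stage by 0.72 ± 0.15 (0.00013).

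Between the fractions Arid1b was higher in SSEA1pos cells at days 3, 6 and 9, by 0.59 ± 0.15 (adjusted p = 0.0097), 0.66 ± 0.15 (0.0017) and 0.58 ± 0.15 (0.0029), the first call being lost without SSEA1neg replicate 1 (0.45, 0.058) or SSEA1pos replicate 3 (0.50, 0.074). The call at the iPS stage (0.37 ± 0.15, 0.034) was lost on leaving out any of 5 of its 6 libraries, all but SSEA1neg replicate 3 (0.27 to 0.34, adjusted p 0.086 to 0.16). In contrast to Smarca2 and Smarcc2, Arid1b was not lower in SSEA1pos than in SSEA1neg cells at any stage. The step from day 9 to day 12 was called only with the replicate number as a block (-0.36, adjusted p = 0.046). The Arid1a to Arid1b ratio moved less than the others, from 1.9 in MEFs to 3.79, 3.93, 4.22, 5.23 and 4.56 in SSEA1pos and 2.59, 2.49, 2.65, 2.7 and 3.04 in SSEA1neg cells, with 15 of 15 same-numbered pairs higher in SSEA1pos cells. The log2 difference between fractions was 0.68 (exact permutation p = 6.3e-07, the smallest that 3200000 regroupings allow, adjusted 3.8e-06). With the stages pooled, both fractions were above MEFs, by 1.19 in SSEA1pos and 0.50 in SSEA1neg cells (exact p = 0.0012 each, adjusted 0.0016).

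Smarcd1 and Smarcd3 encode alternative accessory subunits through which transcription factors contact the complex, Smarcd3 being the form known from heart and skeletal muscle. Smarcd1 had its lowest mean in MEFs, with 47.8, 44.3 and 50.1 CPM. In SSEA1pos cells it was 121, 124 and 161 CPM at day 3, 140, 144 and 180 at day 6, 159, 186 and 215 at day 9, 229, 211 and 179 at day 12, and 119, 172 and 161 at the iPS stage. The SSEA1neg libraries had 42.3 to 90.8 CPM. No SSEA1pos library was as low as any MEF or SSEA1neg library.

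Against MEFs the SSEA1pos rise was 1.51 ± 0.23 (adjusted p = 8.1e-06) at day 3, 2.12 ± 0.23 (3.5e-08) at day 12 and 1.67 ± 0.23 (8.4e-07) at the iPS stage, the largest rise among the 10 genes at day 12. The fractions differed by 0.90 ± 0.23 (0.011) at day 3 and 1.71 ± 0.23 (2.7e-06) at day 12, and the day 3 call was lost without SSEA1pos replicate 3 (0.75, 0.079). In SSEA1neg cells Smarcd1 was called above MEFs at day 3 alone (0.62 ± 0.23, 0.029), and that call was lost on leaving out any of 4 of its 6 libraries, MEF replicates 1 to 3 and SSEA1neg replicate 3 (0.47 to 0.56, adjusted p 0.095 to 0.17). With the GC trend removed the later SSEA1neg stages were called as well (0.79, 0.78, 0.56 and 0.58 at days 6, 9 and 12 and the iPS stage).

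Smarcd3 had 19.9, 20.5 and 19.5 CPM in MEFs, above all other libraries. In SSEA1pos cells it was 4.67, 6.17 and 6.65 CPM at day 3, 1.84, 3.36 and 3.33 at day 6, 1.37, 2.54 and 1.87 at day 9, 1.78, 2.04 and 2.10 at day 12, and 3.93, 5.68 and 6.14 at the iPS stage. It was the least abundant of the genes, with 33 reads in the library with the fewest. The SSEA1neg libraries held 5.99 to 10.6 CPM. Smarcd3 was thus below MEFs from day 3 on in both fractions, and was lowest at days 9 and 12 in SSEA1pos cells.

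Its log2 change against MEFs in SSEA1pos cells was -1.78 ± 0.28 (adjusted p = 1.5e-05) at day 3, -3.37 ± 0.30 (2e-09) at day 9, -3.34 ± 0.30 (1.6e-09) at day 12 and -1.93 ± 0.28 (2.1e-06) at the iPS stage, and in SSEA1neg cells it lay between -1.51 and -1.01 at all stages, all called. From day 12 to the iPS stage it rose by 1.41 ± 0.29 (0.0016), and from day 3 to day 6 it fell by 1.03 ± 0.28 (0.031), a call lost on leaving out any of 5 of its 6 libraries, all but day 6 replicate 2 (-1.17 to -0.74, adjusted p 0.064 to 0.15). The fractions differed at day 6 (-1.50 ± 0.28, 0.00043), day 9 (-1.99 ± 0.29, 1.5e-05), day 12 (-1.83 ± 0.29, 1.6e-05) and the iPS stage (-0.92 ± 0.28, 0.0077). The sum of 7 striated muscle markers also had its highest median in MEFs, with 76.9 to 260 CPM, against 1.72 to 10.6 CPM in both fractions of days 3 to 9. In SSEA1pos cells it was 19.6 to 36.4 CPM at day 12 and 47.5 to 74.2 CPM at the iPS stage. In SSEA1neg cells it was 7.23 to 15.5 CPM at day 12 and 124, 44.3 and 19.3 CPM at the iPS stage, where replicate 1 was above MEF replicate 1. The part of muscle cells in the Smarcd3 values was not tested. In the reference annotation 48.16% of the exon bases of Smarcd3 also lie in exons of Chpf2 on the other strand. Counting without strand cannot assign reads there to either gene alone, and the counts keep ambiguous reads apart from the genes. Smarcd3 may therefore be undercounted, which would bear on its level per kb and on the Smarcd1 to Smarcd3 ratio, and this was not tested.

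The Smarcd1 to Smarcd3 ratio was 2.37 in MEFs and 23.2, 55.4, 98.2, 103 and 28.7 in SSEA1pos cells from day 3 to the iPS stage. In SSEA1neg cells it was 9.5, 8.33, 9.09, 8.93 and 6.39. Unlike the ATPase and SMARCC ratios it was at its widest before the iPS stage, and the iPS libraries (30.3, 30.3 and 26.2) lay below all libraries of days 6 to 12. The log2 ratio was 2.63 higher in SSEA1pos than in SSEA1neg cells (exact permutation p = 6.3e-07, adjusted 3.8e-06, 15 of 15 same-numbered pairs). With the stages pooled, it was 4.45 above MEFs in SSEA1pos and 1.82 in SSEA1neg cells (exact p = 0.0012 each, adjusted 0.0016).

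Actl6a encodes an actin-related subunit of dividing and stem cells, which post-mitotic neurons replace with the product of Actl6b. MEFs had 55.9, 39.5 and 40.8 CPM. In SSEA1pos cells it was 113, 82.4 and 90.3 CPM at day 3, 98.6, 75.4 and 80.8 at day 6, 115, 88.0 and 104 at day 9, 209, 156 and 117 at day 12, and 144, 157 and 152 at the iPS stage. The SSEA1neg cells had 99.1, 64.3 and 81.1 CPM at day 3, 36.8 to 60.2 CPM at days 6 to 12, and 48.9, 43.4 and 114 at the iPS stage. The SSEA1pos libraries were all above the MEFs, and from day 6 on above the SSEA1neg libraries of their stage. MEF replicate 1, the highest MEF library for Actl6a, also had the highest sum of S-phase genes. At day 12 SSEA1pos replicate 1 was highest in both (3940 CPM of S-phase genes against 3000 and 2540). The S-phase sum also differed between groups, with 515 to 1400 CPM in MEFs and 2230 to 4120 CPM in SSEA1pos cells over all stages. In SSEA1neg cells it was 2060 to 3060 CPM at day 3, 666 to 1660 CPM at days 6 to 12 and 750 to 2120 CPM at the iPS stage. The part of proliferation in these values was not tested.

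Against MEFs Actl6a rose in SSEA1pos cells by 1.07 ± 0.28 (adjusted p = 0.0026) at day 3, 0.90 ± 0.28 (0.0093) at day 6, 1.82 ± 0.28 (5.6e-06) at day 12 and 1.73 ± 0.28 (8.7e-06) at the iPS stage, the day 6 call being lost without MEF replicate 2 (0.75, 0.051). The SSEA1neg day 3 cells were called higher too (0.84 ± 0.28, 0.016), which was lost without MEF replicate 2 (0.65, 0.098), MEF replicate 3 (0.67, 0.086) or SSEA1neg replicate 1 (0.64, 0.096). Between fractions the difference was 0.23 ± 0.27 (not called, 0.65) at day 3 and 1.71 ± 0.28 (2.8e-05) at day 12. At day 6 it missed the threshold (0.72 ± 0.28, 0.054) and passed with the replicate number as a block (0.73, adjusted p = 0.028). At the iPS stage it was 1.13 ± 0.28 (0.0015), and 1.69 (3.9e-06) without SSEA1neg replicate 3, the library with the high pluripotency sum. Actl6b, the neuronal alternative, had no read in any of the 3 MEF libraries or of the day 3 and day 6 libraries of either fraction, and was highest in SSEA1neg iPS replicate 1 at 1.41 CPM. In the annotation 11.63% of the exon bases of Actl6a overlap Mrpl47 on the other strand.

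Dpf2 encodes a subunit whose double PHD finger reads acetylated histone tails. It had 88.1, 79.4 and 82.2 CPM in MEFs and stayed at 80.2 to 93.1 CPM in the SSEA1pos libraries of days 3 to 9. It then reached 118, 107 and 94.9 CPM at day 12 and 107, 131 and 145 at the iPS stage. SSEA1neg cells had 66.3, 68.9 and 73.7 CPM at day 3, 53.2 to 65.4 CPM at days 6 to 12, and 81.7, 63.7 and 91.6 at the iPS stage. The rise in SSEA1pos cells was called at the iPS stage (0.61 ± 0.13, adjusted p = 0.00024) and at day 12 (0.36 ± 0.13, 0.021), the latter being lost on leaving out any of 5 of its 6 libraries, all but SSEA1pos replicate 3 (0.27 to 0.33, adjusted p 0.056 to 0.12). The fall in SSEA1neg cells was called at days 6, 9 and 12, with 0.49 ± 0.13 (0.004), 0.57 ± 0.13 (0.0014) and 0.52 ± 0.13 (0.0028). Between fractions the difference was 0.49 ± 0.13 (0.0077) at day 6, 0.88 ± 0.13 (9.3e-06) at day 12 and 0.69 ± 0.13 (0.00012) at the iPS stage.

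Counts over the 10 genes are read beside the share of all tested genes that was called. Comparisons with MEFs all share the same 3 MEF libraries. In SSEA1pos cells 6 genes were higher and 2 lower than in MEFs at day 3, where 25.2% of all genes were higher and 21.1% lower. At day 6 the counts were 6 and 2 (26.2 and 21.5% of all genes), at day 9 5 and 2 (29.5 and 23.4%), at day 12 5 and 3 (34.8 and 26.4%), and at the iPS stage 5 and 4 (35.7 and 28.6%). In SSEA1neg cells 3 were higher and 4 lower at day 3 (24.5 and 19.6% of all genes), 1 and 6 at day 6 (23.2 and 18.2%), 1 and 7 at day 9 (20.9 and 17.8%), 1 and 6 at day 12 (22.2 and 18.4%), and 0 and 5 at the iPS stage (24 and 14.5%). The gene still above MEFs in SSEA1neg cells at days 6 to 12 was Smarca2. The median log2 change of the 10 genes ran from 0.34 to 0.68 in SSEA1pos and from -0.66 to -0.26 in SSEA1neg cells, beside medians of all tested genes of 0.09 to 0.26 and 0.07 to 0.19, to which all changes against MEFs are relative.

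Between the fractions 4 of the 10 genes were higher and 0 lower in SSEA1pos cells at day 3, beside 5.57% of all genes higher and 6.33% lower. At day 6 there were 6 higher and 1 lower (12.7 and 14.4% of all genes), at day 9 7 and 1 (20.1 and 18.7%), at day 12 6 and 3 (26.9 and 23.6%), and at the iPS stage 7 and 3 (25.4 and 27%). With only the compared groups in the fit, the calls of Arid1b (0.21, adjusted p = 0.36), Smarcd3 (-1.07, 0.052), Actl6a (0.98, 0.072) and Dpf2 (0.54, 0.093) at the iPS stage were lost, as were that of Smarca4 in SSEA1neg iPS cells against MEFs (-0.81, 0.084) and the day 9 to 12 step of Smarca2 (-1.51, 0.082). RLE size factors ended the calls against MEFs of Smarca4 in SSEA1pos cells at days 3 (0.41, adjusted p = 0.058) and 6 (0.34, 0.11), of Dpf2 in those of day 12 (0.27, 0.061) and of Smarca2 (0.73, 0.089) and Smarcd1 (0.45, 0.1) in day 3 SSEA1neg cells, and the day 9 to 12 step of Smarcc2 (-0.66, 0.062). With no filter on low counts the 4 SSEA1neg calls of Arid1a against MEFs were lost as well (-0.40 to -0.32, adjusted p 0.079 to 0.18). The successive SSEA1pos steps held few calls. Smarcd3 fell from day 3 to 6 (3.45% of all genes higher, 1.81% lower), and none of the 10 was called from day 6 to 9 (1.01 and 0.121%). Smarca2 and Smarcc2 fell from day 9 to 12 (6.37 and 5.47%), and Smarcd3 rose while Smarca2 fell from day 12 to the iPS stage (5.17 and 7.87%). For the empty step from day 6 to 9, no member had an unadjusted p under 0.05 in edgeR's test (lowest 0.061), and DESeq2 called 0 members.

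**Figure D3:**
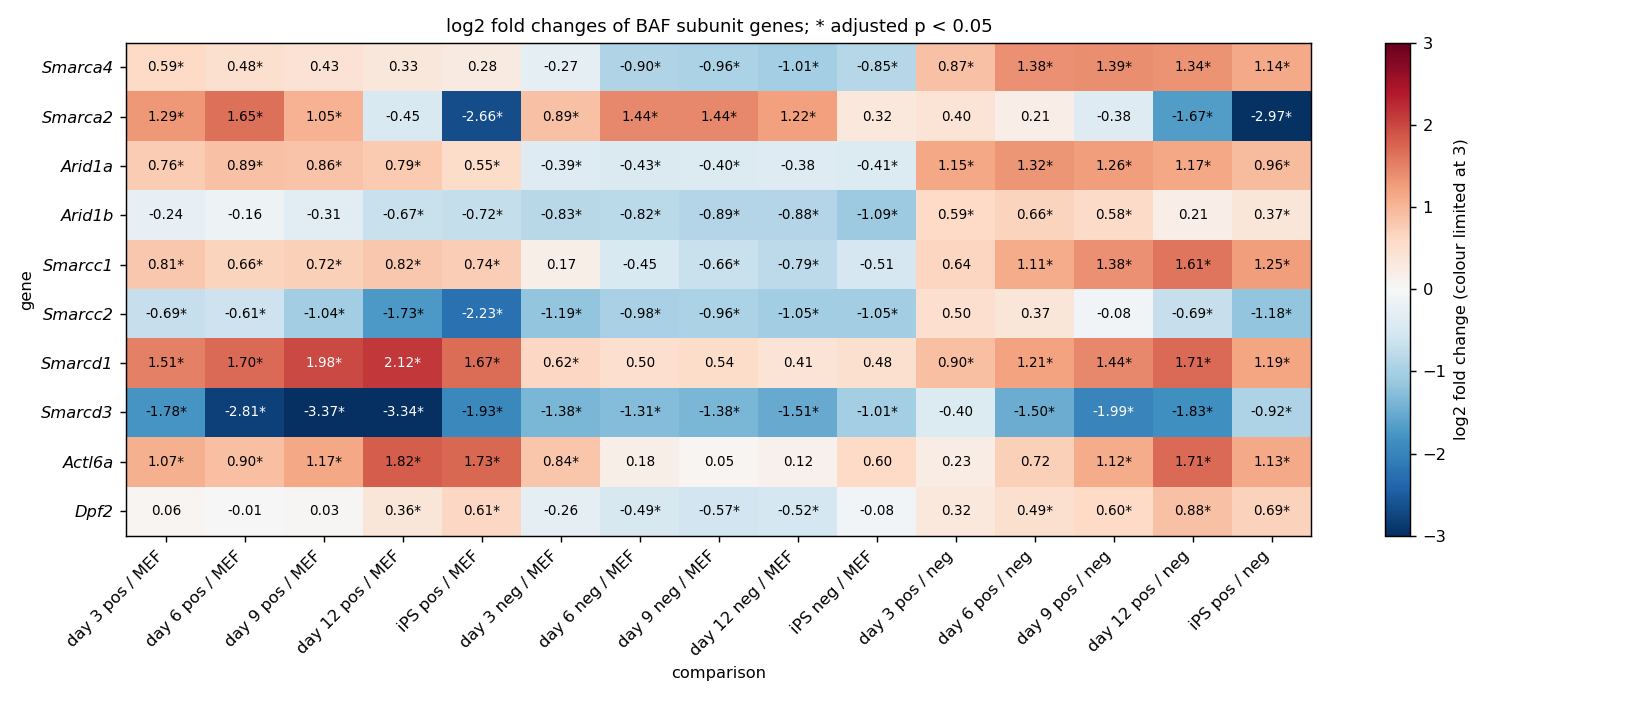
Log2 fold changes of the 10 genes against MEFs and between fractions, with stars at adjusted p under 0.05 (edgeR, over 17326 genes; colour limited at 3). Smarca2 turns from red to blue in SSEA1pos cells between days 9 and the iPS stage, and Smarca4, Arid1a and Smarcd1 are red and starred between fractions at all 5 stages.

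The change of the sort difference with time was tested as an interaction. From day 3 to day 12 the difference between SSEA1pos and SSEA1neg cells grew for Actl6a (by 1.48 ± 0.39, adjusted p = 0.011), Smarcc1 (0.97 ± 0.30, 0.029) and Dpf2 (0.56 ± 0.18, 0.037), and moved down for Smarca2 (-2.07 ± 0.48, 0.0053), Smarcd3 (-1.43 ± 0.39, 0.014) and Smarcc2 (-1.18 ± 0.31, 0.011), where 8.65% of all genes moved up and 9.06% down. The Smarcc1 value was lost at 6 of 12 libraries left out in turn (0.67 to 0.96, adjusted p 0.059 to 0.13), namely SSEA1neg replicate 1 and SSEA1pos replicates 2 and 3 of day 3, and SSEA1neg replicates 2 and 3 and SSEA1pos replicate 1 of day 12. The Dpf2 value was lost at 9 of 12 (0.47 to 0.57, adjusted p 0.054 to 0.12), all but day 3 SSEA1pos replicate 3 and day 12 replicate 3 of either fraction, and the values of the other 4 genes at none. Smarcd1 passed with the replicate number as a block (0.85, adjusted p = 0.019; 0.81 ± 0.32, 0.075 without it). For Smarca4, Arid1a and Arid1b no change of the sort difference was called. From day 3 to the iPS stage it was called for Smarca2 (-3.37 ± 0.49, 2.1e-05) and Smarcc2 (-1.68 ± 0.31, 0.00036), with 6.41% of all genes up and 12.6% down. Without SSEA1neg iPS replicate 3 Actl6a (1.49, 0.001) and Dpf2 (0.50, 0.036) were called as well.

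Per kb of all annotated exons, the order of levels in MEFs was led by Smarca4 (55.9 ± 9.9 CPM per kb), Smarcc2 (42.8 ± 2.9) and Smarcc1 (31.3 ± 5.4), and Smarca2 (5.32 ± 1.5) and Smarcd3 (3.9 ± 0.11) came last (SD, n = 3). In SSEA1pos iPS cells it was led by Smarca4 (68.1 ± 8.2), Smarcc1 (52.2 ± 8.0), Actl6a (38.9 ± 1.7) and Smarcd1 (37.4 ± 7.0), with Smarcc2 (9.13 ± 2.3) far lower than in MEFs and Smarcd3 (1.03 ± 0.23) and Smarca2 (0.843 ± 0.29) last. Neighbours such as Actl6a and Smarcd1, or Smarcd3 and Smarca2, overlap in that group. The order rests on the length used, since on the principal transcript Actl6a (75.2 ± 3.2), Smarcc1 (71.6 ± 11) and Smarca4 (69.4 ± 8.4) lead without a gap.

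Of the 21 other BAF and PBAF subunit genes on a list drawn up by name, with earlier results of these data known, 20 were tested. In SSEA1pos cells 9 were higher and 0 lower than MEFs at day 3 (25.2 and 21.1% of all genes), and 4 higher and 7 lower at the iPS stage (35.7 and 28.6%). In SSEA1neg cells of the iPS stage 1 was higher and 8 lower (24 and 14.5%). Between the fractions, 2 were higher and 0 lower in SSEA1pos cells at day 3 (5.57 and 6.33% of all genes). At the iPS stage 6 were higher and 2 lower (25.4 and 27%). Of the core subunits, Smarcb1 was not called against MEFs at any stage in either fraction, while Smarce1 was called higher by 0.39 in SSEA1pos cells at day 3 and lower by 0.53 at the iPS stage. The named genes are the 4 with the largest called change at the SSEA1pos iPS stage among those of at least 5 CPM.

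Among these, Bcl11a, a zinc finger subunit of neural and lymphoid BAF, had a course like that of Smarca2. It rose from 15.5, 14.3 and 13.5 CPM in MEFs to 85.2, 135 and 141 CPM in SSEA1pos cells at day 6, stood at 8.04, 38.1 and 62.3 CPM at day 12 and fell to 1.91, 3.40 and 0.577 CPM at the iPS stage (-2.89 ± 0.60, adjusted p = 0.00016). Its day 12 libraries stand in the same order as those of Smarca2. Bicral, which belongs to the non-canonical complex without ARID subunits, rose from 24.1, 26.2 and 31.6 CPM to 84.7, 84.2 and 126 CPM (1.85 ± 0.20, 1.3e-08). Dpf1, a paralogue of Dpf2, was called higher (1.35 ± 0.46, 0.013) from 9.3, 3.9 and 7.24 to 10.8, 14.9 and 26.6 CPM, a call lost without MEF replicate 2 or SSEA1pos iPS replicate 3 (1.04, 0.081; 0.85, 0.13). Actb, the actin subunit, which is also the main cytoskeletal actin, fell by 1.2 ± 0.28 (0.00072).

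**Figure D4:**
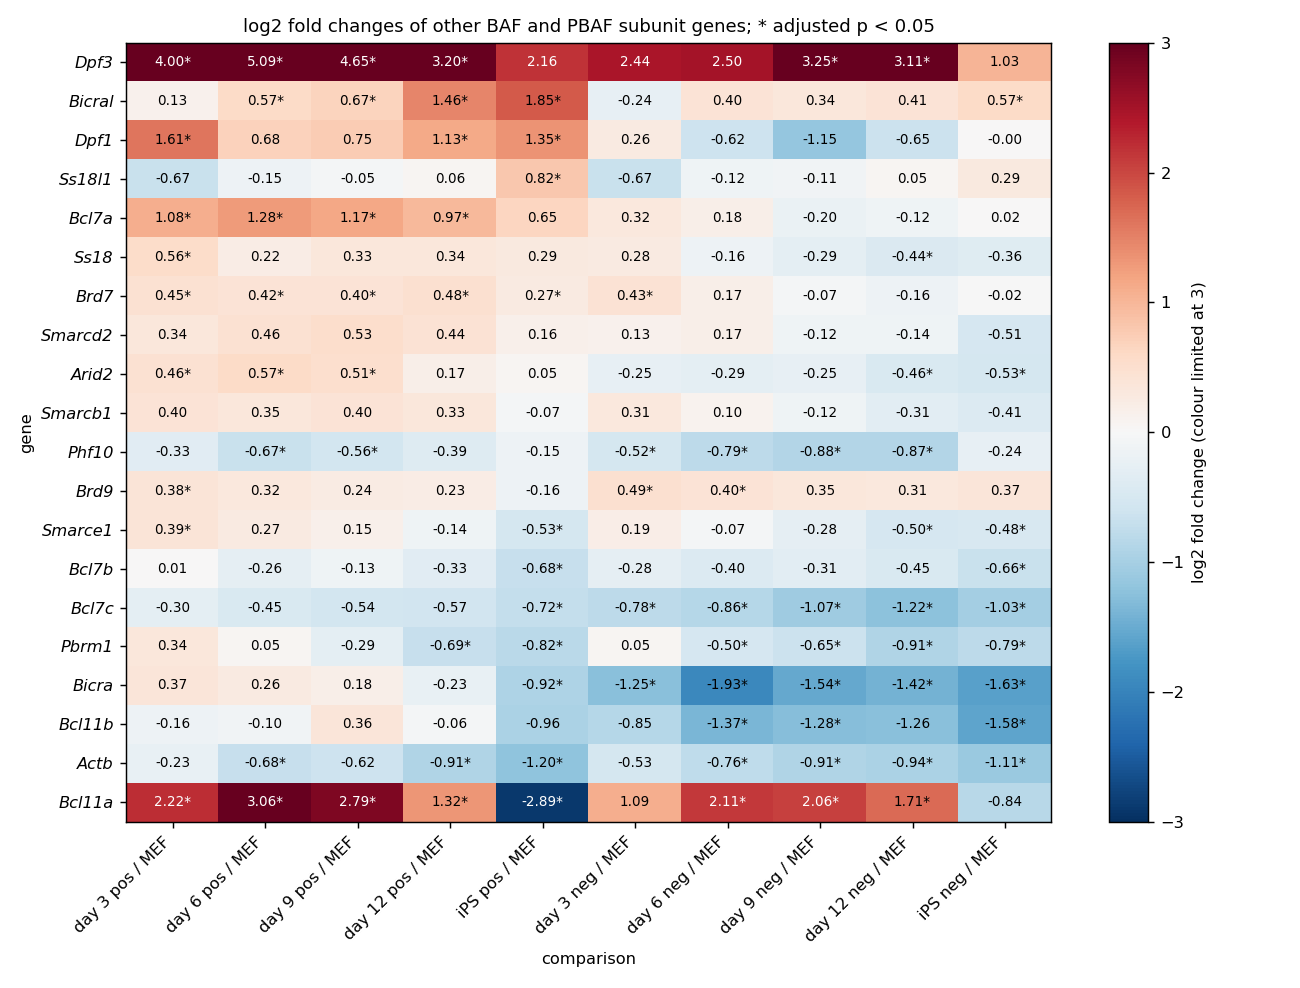
Log2 fold changes against MEFs of the 20 other BAF and PBAF subunit genes tested, ordered by the SSEA1pos iPS value, with stars at adjusted p under 0.05 (edgeR; colour limited at 3). Bcl11a turns from 3.06 at day 6 to -2.89 at the iPS stage in SSEA1pos cells, and the large values of Dpf3 rest on levels of 0 to 4.19 CPM.

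Among 26 genes of the ISWI, CHD and INO80/SWR1 remodellers, 16 were higher and 1 lower than MEFs in SSEA1pos cells at both day 3 (25.2 and 21.1% of all genes) and the iPS stage (35.7 and 28.6%). In SSEA1neg cells 7 were higher and 2 lower at day 3 (24.5 and 19.6% of all genes), and 3 and 8 at the iPS stage (24 and 14.5%). Among the INO80 and SWR1 genes, 7 of 8 were higher than MEFs in SSEA1pos cells at each of the 5 stages, where 25.2 to 35.7% of all genes were. Between the fractions, 10 of the 26 remodeller genes were higher and 0 lower in SSEA1pos cells at day 3 (5.57 and 6.33% of all genes). At the iPS stage 19 were higher and 1 lower (25.4 and 27%). An excess in SSEA1pos cells was therefore not particular to the BAF genes. Chd3, an ATPase of the NuRD family, went the way of Smarca2 late, from 658, 538 and 595 CPM in MEFs to 50.6, 146 and 196 CPM at day 12 and 24.1, 37.1 and 34.1 CPM at the iPS stage in SSEA1pos cells (-4.23 ± 0.30, 2.4e-11). Chd7, which has roles in neural crest and stem cells, rose to 73.1, 73.4 and 62.0 CPM from 4.01, 7.62 and 4.31 (3.71 ± 0.36, 2.6e-09), and Chd5 to 27.1, 37.6 and 30.7 from 1.63, 2.14 and 2.09 CPM (4.03 ± 0.75, 4.6e-05). Cecr2, which partners the ISWI ATPases, had 0.174, 0 and 0 CPM in MEFs and 114, 131 and 115 CPM in SSEA1pos iPS cells.

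The genes whose 11 group means followed those of a member most closely, among 11248 genes with a group of at least 10 CPM, were named by Pearson's r on the log2 scale, as a description with no test. For Smarca2 they included Tmem246 (0.988) and G6pc3 (0.98), and for Smarcc2 they were B4galt2 (0.987), Tshz3 (0.978) and Foxj2 (0.976). For Smarca4 they were Ubap2 (0.997), Ptbp1 (0.991) and Ubap2l (0.99), and for Smarcc1 Ppp1cc (0.991), Cad (0.991) and Nrf1 (0.99). Tmem246 matched Smarca2 in both its parts, with 15.9, 6.32 and 10 CPM in MEFs, 23.4, 26.3 and 22.9 CPM at day 6 and 2.12, 1.67 and 0.944 CPM at the iPS stage in SSEA1pos cells. All 11 groups come from 33 libraries of 1 series, and the means share their stages and sorts.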

How the data were processed

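Poly-A RNA of 33 libraries in 11 groups of 3 was sequenced with a directional kit, per the labels' protocols. The authors deposited whole-number counts of reads per gene, 1 file per library; STAR 2.3.0, Picard 1.100, HTSeq 0.6.0 and mm9 are named in the submitters' processing notes, with an annotation release not given in the sources used here. Counting without strand is known from the names of the deposited files alone. Lines that name no gene (no-feature share 4.42 to 15.51%) were left out. Of 37583 gene IDs, 32860 matched a symbol in GENCODE M21 (GRCm38), which also gave exon lengths and GC content; no mm9 coordinate is printed.

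Counts were filtered by expression, TMM-normalised and fitted with edgeR 4.0.16 (quasi-likelihood, prior count 2, 17326 genes, 22 residual degrees of freedom; limma 3.58.1, R 4.3.3), with 1 mean per group. Paralogue ratios used counts plus 0.5 and exact permutation tests over libraries, adjusted over 12 tests. Alternatives were RLE size factors, no filter, the replicate number as a block, removal of a GC trend (96.3% of tested genes have a GC value), the compared groups alone, DESeq2 1.42.0, a 2-fold minimum, leaving out each library and, for ratios, 1 mean per replicate number. Fits were tested on simulated data. The 10 genes are named throughout; of the other subunits and remodellers, the 4 per list of at least 5 CPM with the largest called change in SSEA1pos iPS cells; and per ATPase or SMARCC gene, the 3 most alike. Members and lists were chosen with earlier results of these data known.

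Replicate numbers come from the labels. By the rule used, they pair libraries where the deviations of all 3 same-numbered pairs correlated above 0.1. This held between fractions at days 3 to 12 (r 0.176 to 0.555) and for the SSEA1pos steps up to day 12 (0.103 to 0.632). It also held for SSEA1pos cells of days 3, 6 and 12 against MEFs (0.113 to 0.231), and not for the other comparisons. The main fits and main ratio tests did not use this pairing. It entered the alternatives with the replicate number as a block and the paired permutation test of the ratios. One gene that the rule for genes of like pattern named is not reported here.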

Additional observations from a re-analysis of the deposited data

Results flagged for a closer look

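The difference between SSEA1pos and SSEA1neg cells itself changed between stages for 6 of the 10 genes, by the interaction test of edgeR over all genes, which called 8.65% of all genes up and 9.06% down between day 3 and day 12, and 6.41 and 12.6% between day 3 and the iPS stage. Between day 3 and day 12 it moved by -2.07 for Smarca2, -1.43 for Smarcd3 and -1.18 for Smarcc2, and by 1.48 for Actl6a, 0.97 for Smarcc1 and 0.56 for Dpf2 on the log2 scale. The calls of Smarcc1 and Dpf2 were lost with no filter on low counts (0.89, adjusted p = 0.064; 0.49, 0.17), and on leaving out 6 and 9 of the 12 libraries in turn, those named beside these values above. Between day 3 and the iPS stage it moved by -3.37 for Smarca2 and -1.68 for Smarcc2.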

How the results depend on the processing

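Of 210 comparisons of single members, 125 were called and none of these reversed under any alternative run; 60 were called under no setting, and in 21 of these the sign turned under some alternative. Calls were lost, and others gained, with RLE size factors (6 lost, 7 gained), no filter on low counts (15, 0), the GC trend removed (6, 12), the compared groups alone (14, 4) and DESeq2 (3, 10), and 26 were lost on leaving out some library. RLE size factors shifted the members' changes against MEFs by -0.19 to -0.01. With the replicate number as a replicate block, 0 calls were lost and 12 gained, and the paired permutation test left the 4 sort differences of the ratios at p = 6.1e-05, the smallest its 32768 sign patterns allow (exact).

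Requiring a 2-fold change, the members called against MEFs became 4, 3, 4 and 5 in SSEA1pos cells at days 3, 6 and 12 and the iPS stage (32.3, 33.5, 46.6 and 50.5% of all genes). At day 9, 3 were higher and 2 lower in SSEA1pos cells (38.6%). In SSEA1neg cells they became 2, 2, 2, 4 and 3 in order of stage (30.2, 28.2, 26.6, 28.1 and 26.8%). These shares were near the background in both fractions. Between fractions they became 1 at day 3 (6.67%) and 6 at the iPS stage (37.4%), and 1 in the step to day 12 (8.82%). At days 6, 9 and 12 between fractions, 4 were higher and 1 lower (16.4% of all genes), 5 and 1 (25.2%), and 5 and 2 (35.9%). The compared groups alone gave 3 for SSEA1neg iPS cells against MEFs, 6 between the iPS fractions, and 0 for the steps to days 6 and 12. No filter gave 0 and 1 for these steps, RLE size factors gave 1 for the step to day 12, and the replicate block with the GC trend removed gave 4 for the step to the iPS stage. Leaving out 1 library gave 5 to 8 at day 6 SSEA1pos (lowest without MEF replicate 2 or 3) and 4 to 5 at day 3 SSEA1neg against MEFs (lowest without MEF or SSEA1neg replicate 3), 2 to 4 between the day 3 fractions (lowest without SSEA1pos replicate 3), 0 to 1 and 1 to 2 for the steps to days 6 and 12, and 2 to 4 for the change of the sort difference from day 3 to the iPS stage, where the highest came without SSEA1neg iPS replicate 3.

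With the libraries of a number averaged over the stages, chosen after seeing the data, the ratio differences between fractions of 2.16, 1.45, 0.68 and 2.63, those against MEFs of 2.05, 1.19 and 4.45 in SSEA1pos cells and of -1.88, 0.50 and 1.82 in SSEA1neg cells missed the threshold (exact permutation p = 0.1, adjusted 0.11), because 3 against 3 allows no smaller p.

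Among results called under some setting, and the ratios, signs turned in 2, both uncalled with all libraries. The SSEA1pos Smarca4 to Smarca2 log2 ratio against MEFs (0.28) was -0.39 without the iPS stage, and Smarca4 in day 3 SSEA1neg cells (-0.27) was 0.01 with the GC trend removed and 0.02 with the replicate block as well; the cause was not tested. With 3 libraries a group and 33 reads of Smarcd3 in the poorest library, small changes of that gene were not resolved.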
